A study of Mus musculus with 6 samples.

Results

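Genes of white and brown fat cells were read in kidney extracts of Vhl knockout and wild-type mice. The set holds 37 genes, chosen by symbol, that white or brown fat cells express strongly or use to make, store and release fat. Of these, 36 had a row among the 25206 Entrez Gene rows of the arrays, and Adrb3, the beta-adrenergic receptor of fat cells, had none among them. White fat cells hold one large lipid droplet, store triglyceride and secrete hormones such as leptin and adiponectin. Brown fat cells hold many small droplets and burn fatty acids for heat through the uncoupling protein Ucp1. The kidney lies in fat of its own, around the capsule and in the hilum, and in rodents some of this fat is brown. Many enzymes of fatty acid and triglyceride synthesis are made in other tissues too, so the genes of the set differ in how closely they mark a fat cell.

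The extracts came from whole kidneys of male C57BL/6 mice aged 3 months, 3 Vhl knockout and 3 wild-type, with 1 Affymetrix Mouse Gene 2.0 ST array each. The knockout mice carried the floxed Vhl allele with Hoxb7-Cre-GFP, a Cre recombinase whose promoter is active in part of the renal tubule, and the wild-type mice carried that allele without mention of a Cre. Whether the wild-type kidneys carried a Cre is not settled in the sources used here, and if they did not, the effects of Vhl loss and of the Cre transgene cannot be told apart. The knockout extracts also held cells that kept Vhl. The sources used here do not give whether each array is a separate mouse, or how much fat was trimmed from these kidneys. Values are log2 signals, and a log2 signal of 1 gene cannot be set against that of another because their probes differ.

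Over all rows, 697 (2.77%) passed the test between the genotypes, which was limma with a false discovery rate of 0.05 by Benjamini-Hochberg taken over the whole table, and 565 of them (2.24%) were higher in the knockout and 132 (0.524%) lower. The array medians lay between 5.02 and 5.05, and the lower quartiles between 3.49 and 3.59. The row of Vhl had log2 signals of 6.08, 6.18 and 6.10 on the knockout arrays, against 6.11, 6.13 and 6.03 on the wild-type arrays. The log2 fold change of Vhl, here called the log2 ratio of knockout to wild-type means, was 0.03 (SE, standard error, 0.072, adjusted p = 0.860). No source used here says which exons this row reads, so its values neither bear out nor contradict the genotypes. The tissue label was borne out by kidney markers, 9 of 10 of which had a row, and all 9 lay above the array median on every array. Of these, none passed the test between the genotypes, in either direction, and none had an unadjusted p under 0.05.

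The stretches before the start sites are shown for 5 of the genes, picked by their values or as a defining gene. A link between these letters and the values was not tested. Retn, Adipoq and Cidec had the widest spread among the knockout arrays, Lep was far from the wild-type values relative to its spread, and Ucp1 is the defining gene of brown fat. Each run is the 250 bases before the start, 5′ to 3′ on the strand of the gene, from the RefSeq promoter table of build GRCm38.p6. Capitals mark matches, on either strand, to TTGCNNAA, the core bound by C/EBP factors, AGGTCA, the hexamer bound by nuclear receptors such as PPAR gamma, and GCGTG or ACGTG, the core bound by hypoxia-inducible factors.
Retn, chr8:3655520-3655769, plus strand: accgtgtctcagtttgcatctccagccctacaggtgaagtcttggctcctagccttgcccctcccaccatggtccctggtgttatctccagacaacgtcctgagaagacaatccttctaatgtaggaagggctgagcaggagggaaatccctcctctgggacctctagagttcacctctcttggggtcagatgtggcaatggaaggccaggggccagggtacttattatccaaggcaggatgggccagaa
Adipoq, chr16:23146286-23146535, plus strand: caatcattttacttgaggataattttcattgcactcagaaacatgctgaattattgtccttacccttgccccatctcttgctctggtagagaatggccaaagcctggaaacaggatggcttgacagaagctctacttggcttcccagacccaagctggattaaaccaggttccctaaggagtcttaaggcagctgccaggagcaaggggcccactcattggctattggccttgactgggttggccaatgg
Cidec, chr6:113435761-113436010, minus strand, the first of its 2 windows: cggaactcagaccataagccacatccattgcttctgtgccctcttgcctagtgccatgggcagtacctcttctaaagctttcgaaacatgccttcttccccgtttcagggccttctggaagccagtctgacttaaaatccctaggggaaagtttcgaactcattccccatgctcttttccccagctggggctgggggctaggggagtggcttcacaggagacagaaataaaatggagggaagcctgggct
Lep, chr6:29059971-29060220, plus strand: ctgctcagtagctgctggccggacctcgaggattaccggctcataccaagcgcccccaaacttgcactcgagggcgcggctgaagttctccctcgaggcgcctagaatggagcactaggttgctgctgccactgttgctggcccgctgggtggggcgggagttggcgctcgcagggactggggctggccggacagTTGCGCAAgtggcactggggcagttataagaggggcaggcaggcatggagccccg
Ucp1, chr8:83290098-83290347, plus strand: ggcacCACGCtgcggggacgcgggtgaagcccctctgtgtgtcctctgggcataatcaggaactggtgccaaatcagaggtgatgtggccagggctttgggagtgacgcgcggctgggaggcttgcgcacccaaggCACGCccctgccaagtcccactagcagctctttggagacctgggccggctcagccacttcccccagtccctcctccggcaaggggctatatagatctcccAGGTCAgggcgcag
The windows of Retn and Adipoq and the printed window of Cidec held no match to these letters. The Lep window held TTGCGCAA from 55 to 48 bases before the start. The Ucp1 window held AGGTCA from 14 to 9 bases before the start, and CACGC, which is GCGTG on the other strand, from 245 to 241 and from 114 to 110 bases before it. Of the 36 genes with a row, 25 had a window in the table, with 34 windows in all. TTGCNNAA was in 14.7% of these 34 windows, from 5 genes (Cidec, Lep, Mest, Plin1 and Pparg), against 9.56% of all 32851 windows in the table. AGGTCA was in 20.6% of the 34 windows, against 14% of all windows, and GCGTG was in 35.3%, against 28.2% of all windows. ACGTG was in 17.6% of the 34 windows, against 16.6% of all windows. The letters CACGTG match ACGTG on both strands, and in Gpam a match to AGGTCA overlapped one to GCGTG. A match describes the letters only, and no match says nothing about binding outside these windows.

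Several genes that mark white fat cells were far above the wild-type level on the arrays of knockout replicates 1 and 3 and near or below it on the array of knockout replicate 2. Relative to the wild-type mean, the median over the 36 genes was 0.64 on the log2 scale on knockout replicate 1, -0.07 on replicate 2 and 0.27 on replicate 3. In limma 0 of the 36 genes passed the test, in either direction, beside 2.77% of all rows, and at an unadjusted p under 0.05 limma put 7 higher (19.4%, beside 8.67% of all rows) and 0 lower (8.38% of all rows). An ordinary linear model without moderation also passed 0 of them, but only 26 of all 25206 rows passed in that fit, so this 0 says little about the set. The log2 ratio was above 0 for 30 of the 36 genes (83.3%, beside 42.7% of all rows) and below 0 for 6, with a range from -0.18 to 2.36. Its median was 0.25, against -0.03 over all rows, and this median was 0.49 without knockout replicate 2, 0.08 without knockout replicate 1 and -0.070 without knockout replicates 1 and 3, a setting chosen after seeing the data. In such bulk extracts more fat cells and more RNA per fat cell cannot be told apart, and the part of fat attached to the kidney in these values was not tested.

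**Figure D1:**
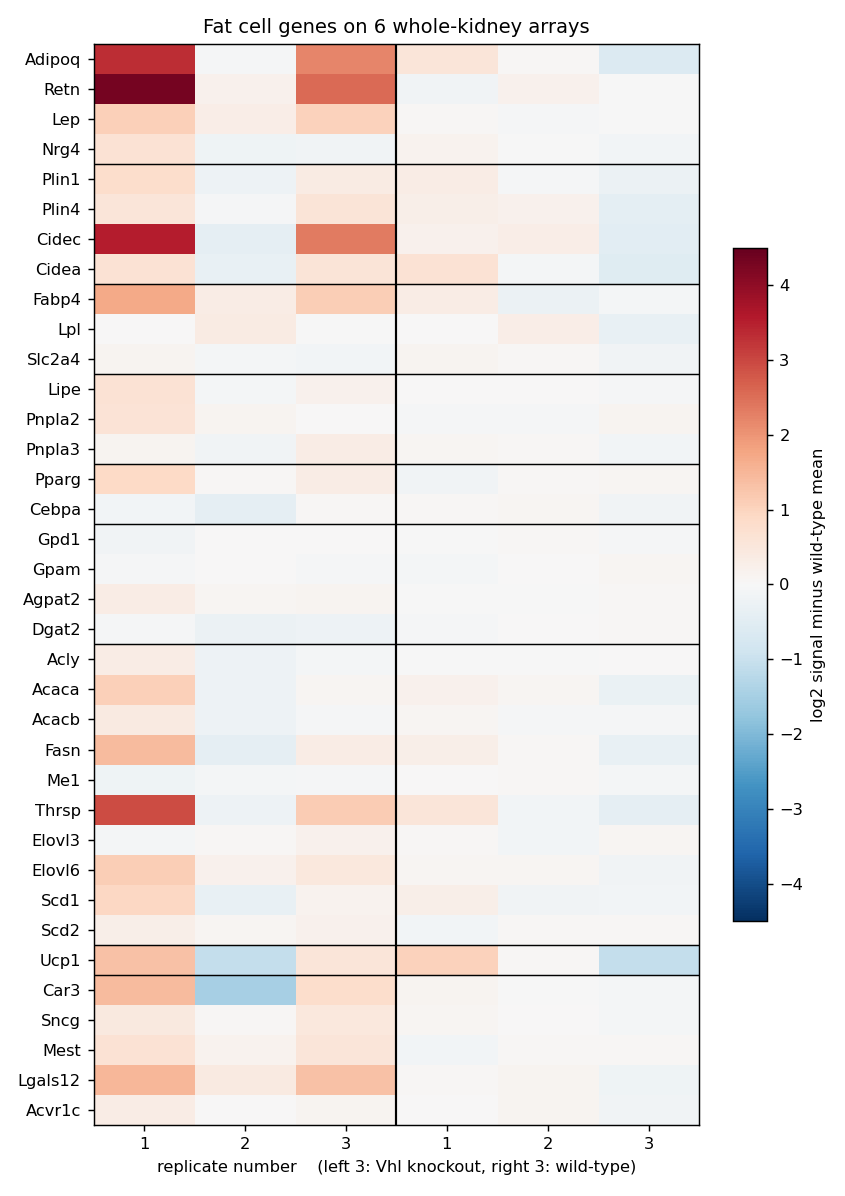
Log2 signal minus the mean of the 3 wild-type arrays (colour) for the 36 genes (rows, grouped by role) on the 6 arrays (columns, Vhl knockout replicates 1 to 3 left of wild-type replicates 1 to 3). Retn, Cidec, Adipoq and Thrsp stand out on knockout replicates 1 and 3, while the columns of knockout replicate 2 and of the wild-type arrays are mostly pale, apart from Car3 and Ucp1.

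Among the hormones, Retn had the largest log2 ratio of the set. Retn encodes resistin, which fat cells secrete in mice. Its log2 signal was 8.89, 4.76 and 7.13 on the knockout arrays, against 4.41, 4.75 and 4.56 on the wild-type arrays. Knockout replicates 1 and 3 lay 19.9-fold and 5.90-fold above the wild-type mean, while replicate 2 was only 0.01 above the highest wild-type array on the log2 scale. The groups thus did not overlap, by a margin well inside the wild-type spread. The log2 ratio was 2.36 (SE 0.893, 95% interval 0.26 to 4.45, adjusted p = 0.241). The exact two-sided permutation test gave p = 0.1 for Retn, the smallest that 3 arrays against 3 allow.

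Adipoq encodes adiponectin, a hormone made almost only by fat cells. Its log2 signal was 6.34, 2.95 and 5.23 on the knockout arrays, against 3.58, 3.08 and 2.39 on the wild-type arrays. Knockout replicates 1 and 3 were above every wild-type array, replicate 2 lay inside the wild-type range, and 4 of the 6 arrays were under their own lower quartile. The log2 ratio was 1.82 (SE 0.785, 95% interval -0.02 to 3.66, adjusted p = 0.299). Lep, the satiety hormone leptin, had log2 signals of 4.62, 3.87 and 4.59 on the knockout arrays, against 3.62, 3.52 and 3.55 on the wild-type arrays. All 3 knockout arrays lay above all 3 wild-type arrays, replicate 2 by 0.25, and all 6 were below the array median. Its log2 ratio was 0.80, or 1.74-fold (SE 0.194, 95% interval 0.34 to 1.25, adjusted p = 0.0887). Nrg4, a secreted factor of brown fat, had 7.13, 6.29 and 6.33 on the knockout arrays, against 6.63, 6.46 and 6.37 on the wild-type arrays. For Nrg4 replicate 1 alone stood above the wild-type range, and the sign turned without it (log2 ratio 0.10 with all arrays, -0.18 without knockout replicate 1).

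The proteins that coat and fuse lipid droplets followed the same arrays to very different degrees. Cidec fuses droplets into the large droplet of white fat cells. Its log2 signal was 8.51, 4.56 and 7.29 on the knockout arrays, against 5.15, 5.27 and 4.47 on the wild-type arrays. Replicates 1 and 3 lay 11.7-fold and 5.04-fold above the wild-type mean, and replicate 2 lay within the wild-type range. The log2 ratio was 1.83 (SE 0.887, 95% interval -0.25 to 3.91, adjusted p = 0.352). Plin1, the coat protein that guards the droplet against lipases, had 5.86, 4.84 and 5.46 on the knockout arrays, against 5.39, 5.01 and 4.82 on the wild-type arrays. Plin4, another droplet coat protein, had 5.79, 5.19 and 5.82 on the knockout arrays, against 5.50, 5.42 and 4.79 on the wild-type arrays. Both perilipins overlapped between the genotypes, with log2 ratios of 0.32 for Plin1 (SE 0.261, adjusted p = 0.596) and 0.36 for Plin4 (SE 0.235, adjusted p = 0.489).

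Fabp4, a carrier of fatty acids that fat cells and also endothelial cells make, had log2 signals of 9.78, 8.42 and 9.19 on the knockout arrays, against 8.44, 7.84 and 8.01 on the wild-type arrays. Only knockout replicate 2 and wild-type replicate 1 overlapped, by 0.02 on the log2 scale. The log2 ratio was 1.04, or 2.05-fold (SE 0.327, 95% interval 0.27 to 1.80, adjusted p = 0.172). Lpl, the lipase that frees fatty acids from lipoproteins, ran otherwise. Its log2 signal was 10.37, 10.70 and 10.33 on the knockout arrays, against 10.38, 10.66 and 10.01 on the wild-type arrays. Here knockout replicate 2 was the highest of the 6 arrays, and the log2 ratio was 0.12 (SE 0.177, adjusted p = 0.785), turning to -0.050 without wild-type replicate 3. Slc2a4, the insulin-dependent glucose carrier of fat and muscle, spanned 6.56 to 6.82 on the knockout arrays, against 6.53 to 6.81 on the wild-type arrays.

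**Figure D2:**
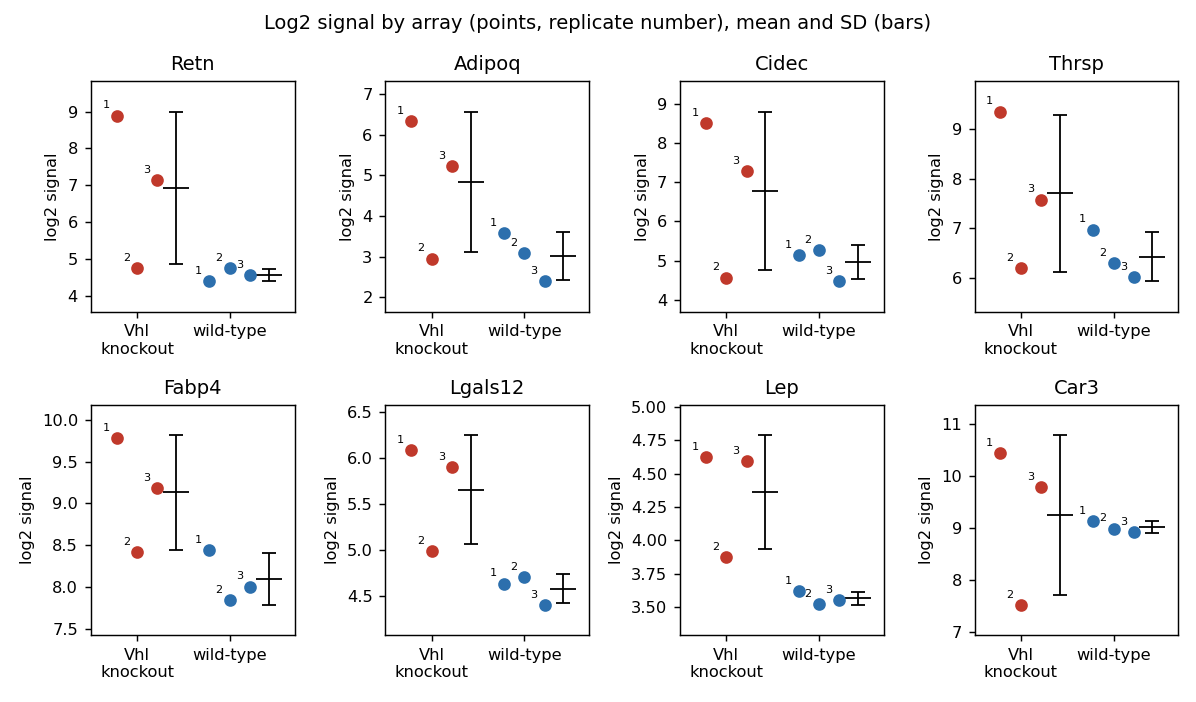
Log2 signal (vertical axis, a separate scale per gene) of 8 genes by array, with the replicate number beside each point and the mean with its SD over 3 arrays as a bar at the right of each genotype, Vhl knockout left of wild-type. In all 8 panels knockout replicates 1 and 3 lie above the 3 wild-type arrays, and replicate 2 is the lowest knockout array.

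The lipases of stored fat and the transcription factors of fat cells showed smaller differences. Lipe, hormone-sensitive lipase, had log2 signals of 6.96, 6.23 and 6.51 on the knockout arrays, against 6.35, 6.34 and 6.28 on the wild-type arrays. Its wild-type arrays lay within an SD of 0.040, against an SD of 0.37 on the knockout arrays, and its log2 ratio was 0.24 (SE 0.171, adjusted p = 0.523). Pnpla2, the first lipase of triglyceride breakdown, had a log2 ratio of 0.25 (adjusted p = 0.484), and Pnpla3, a related lipid-remodelling enzyme, 0.10 (adjusted p = 0.751). Pparg, the nuclear receptor that drives fat cell formation, had log2 signals of 6.03, 5.16 and 5.45 on the knockout arrays, against 4.98, 5.18 and 5.21 on the wild-type arrays. Replicates 1 and 3 were again the 2 highest of the 6 arrays for Pparg, with a log2 ratio of 0.42 (SE 0.207, adjusted p = 0.356). Cebpa, its partner in fat cell formation, had 6.05, 5.77 and 6.22 on the knockout arrays, against 6.22, 6.27 and 5.99 on the wild-type arrays, with no knockout array above the wild-type range.

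The 4 enzymes of triglyceride synthesis barely moved between arrays. For Gpd1, which makes glycerol 3-phosphate, the log2 signal spanned 10.04 to 10.25 on the knockout arrays, against 10.15 to 10.28 on the wild-type arrays. Gpam, which adds the first fatty acid, spanned 9.15 to 9.22 on the knockout arrays, against 9.12 to 9.30 on the wild-type arrays. Both genes overlapped between the genotypes. Agpat2, which adds the next fatty acid, had 8.11, 7.84 and 7.88 on the knockout arrays, against 7.74, 7.74 and 7.82 on the wild-type arrays. Dgat2, which adds the last, had 8.77, 8.58 and 8.61 on the knockout arrays, against 8.78, 8.85 and 8.87 on the wild-type arrays. The groups did not overlap for Agpat2 (knockout above) or Dgat2 (knockout below, the only gene of the set in that direction), at log2 ratios of 0.17 (adjusted p = 0.397) and -0.18 (adjusted p = 0.321).

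The 10 genes of fatty acid synthesis divided between steep and flat ones. Thrsp, a lipogenic protein of fat and liver, had log2 signals of 9.35, 6.19 and 7.58 on the knockout arrays, against 6.97, 6.29 and 6.01 on the wild-type arrays. Replicate 1 lay 7.59-fold above the wild-type mean and replicate 2 inside the wild-type range. The log2 ratio of Thrsp was 1.28 (SE 0.712, 95% interval -0.39 to 2.95, adjusted p = 0.417). Fasn, fatty acid synthase, had 9.42, 7.58 and 8.33 on the knockout arrays, against 8.28, 8.07 and 7.66 on the wild-type arrays. For Fasn, replicate 1 was the highest and replicate 2 the lowest of all 6 arrays, and the log2 ratio of 0.44 (adjusted p = 0.653) turned to -0.050 without knockout replicate 1.

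Elovl6, which lengthens saturated fatty acids, had 8.23, 7.30 and 7.58 on the knockout arrays, against 7.19, 7.20 and 6.94 on the wild-type arrays. The groups did not overlap, replicate 2 lying 0.10 above the highest wild-type array, and the log2 ratio was 0.59 (SE 0.225, adjusted p = 0.243). Acaca, which commits carbon to fatty acid synthesis by making malonyl-CoA, had 8.35, 7.07 and 7.39 on the knockout arrays, against 7.49, 7.38 and 7.00 on the wild-type arrays. Scd1, a desaturase, had 10.07, 8.82 and 9.30 on the knockout arrays, against 9.43, 9.01 and 9.03 on the wild-type arrays. In Acaca and Scd1 only replicate 1 stood above the wild-type range, and both turned below 0 without it (log2 ratio 0.31 for Acaca and 0.24 for Scd1 with all arrays, -0.059 and -0.094 without knockout replicate 1). Scd2, a second desaturase, had no overlap between the genotypes, with a gap of 0.01 and a log2 ratio of 0.18 (adjusted p = 0.351). Acly, which makes acetyl-CoA, and Acacb, another acetyl-CoA carboxylase, had log2 ratios of 0.01 and 0.04, and Me1, a source of NADPH, had -0.11. Elovl3, an elongase of brown fat with a log2 ratio of 0.05, was under the lower quartile of every array, and so was Acvr1c, a receptor of fat cells, with a log2 ratio of 0.15 (adjusted p = 0.565).

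**Figure D3:**
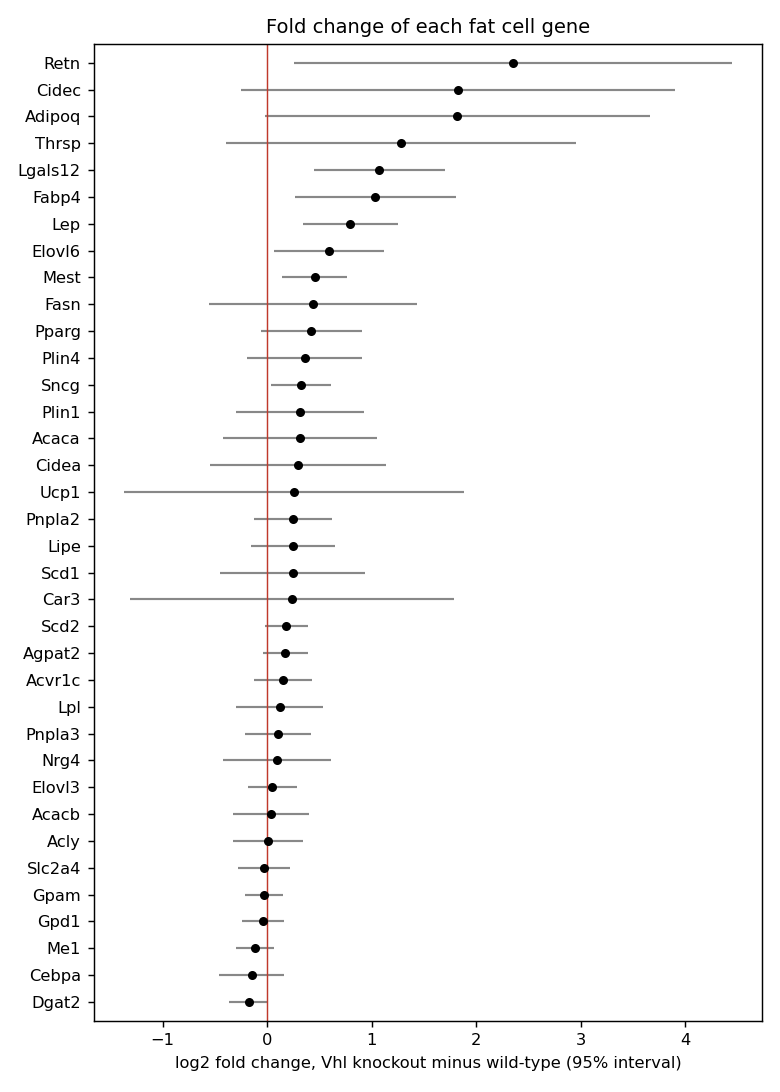
Log2 ratio of Vhl knockout to wild-type (horizontal axis, points) with its 95% interval from limma (lines, 3 arrays per genotype) for the 36 genes, ordered by size. The intervals of 7 genes (Retn, Lgals12, Fabp4, Lep, Elovl6, Mest and Sncg) lie above 0, those of the other 29 include 0, and the widest belong to Retn, Cidec and Adipoq. Each interval assumes the same spread in both genotypes. The SD was 2.07 on the knockout and 0.17 on the wild-type arrays for Retn, and 0.42 and 0.049 for Lep. Intervals with separate spreads were not computed.

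Of the remaining genes enriched in fat cells, Lgals12 and Mest had no overlap between the genotypes. Lgals12, a galectin of the lipid droplet, had log2 signals of 6.08, 4.99 and 5.90 on the knockout arrays, against 4.64, 4.71 and 4.41 on the wild-type arrays. The gap between the genotypes was 0.28 on the log2 scale, and its log2 ratio was 1.07, or 2.11-fold (SE 0.269, 95% interval 0.44 to 1.71, adjusted p = 0.0952). Mest, a gene linked to fat cell size in mice, had 5.93, 5.45 and 5.84 on the knockout arrays, against 5.17, 5.34 and 5.34 on the wild-type arrays, with a log2 ratio of 0.45 (SE 0.134, adjusted p = 0.147). Sncg, a synuclein of fat cells and neurons, had 6.37, 6.00 and 6.39 on the knockout arrays, against 6.01, 5.94 and 5.83 on the wild-type arrays, an overlap of 0.02. Its log2 ratio was 0.33 (SE 0.122, adjusted p = 0.237).

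Car3 went down as well as up. Car3 encodes carbonic anhydrase III, an abundant protein of fat cells and muscle. Its log2 signal was 10.43, 7.52 and 9.78 on the knockout arrays, against 9.13, 8.98 and 8.91 on the wild-type arrays. Replicates 1 and 3 lay 2.69-fold and 1.71-fold above the wild-type mean, while replicate 2 was 1.49 below it on the log2 scale. The SD was 1.53 on the knockout arrays and 0.11 on the wild-type arrays, and the log2 ratio was 0.24 (SE 0.660, adjusted p = 0.893), turning to -0.36 without knockout replicate 1.

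In 3 genes of brown fat, Ucp1, Cidea and Cox8b, a wild-type array was also high, unlike in Retn and Cidec. The order of the wild-type arrays was not particular to them. Wild-type replicate 1 was also the highest and replicate 3 the lowest wild-type array for Adipoq, Plin1, Thrsp and Fasn. In Ucp1, Cidea and Cox8b wild-type replicate 1 lay above knockout replicate 3, as it also did in Acaca and Scd1. Ucp1 had log2 signals of 6.33, 3.92 and 5.54 on the knockout arrays, against 6.03, 5.06 and 3.93 on the wild-type arrays. Its level was highest on knockout replicate 1, then on wild-type replicate 1, knockout replicate 3 and wild-type replicate 2, and lowest on knockout replicate 2 and wild-type replicate 3, which differed by 0.01. The log2 ratio of Ucp1 was 0.26 (SE 0.694, 95% interval -1.37 to 1.88, adjusted p = 0.890), and it turned to -0.28 without knockout replicate 1 or without wild-type replicate 3. Cidea, the droplet protein of brown fat, had 5.66, 4.67 and 5.61 on the knockout arrays, against 5.67, 4.92 and 4.47 on the wild-type arrays. Cox8b, a subunit of cytochrome c oxidase in brown fat and muscle that is not in the set, had 4.82, 3.83 and 4.53 on the knockout arrays, against 4.84, 3.92 and 3.81 on the wild-type arrays. For all 3 genes knockout replicate 2 was the lowest knockout array, wild-type replicate 1 the highest wild-type array and wild-type replicate 3 the lowest, and the ranges of the genotypes overlapped over most of their length. Most other brown fat genes did not share this order. In a brown and beige fat list of 15 genes with a row, described next, wild-type replicate 1 was the highest wild-type array in 7 (beside 33.1% of all rows). In 3 of the 15 this went with knockout replicate 2 being the lowest knockout array (beside 11.7%). These were Cox8b, Ppargc1a and Zic1, whose wild-type values were equal.

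**Figure D4:**
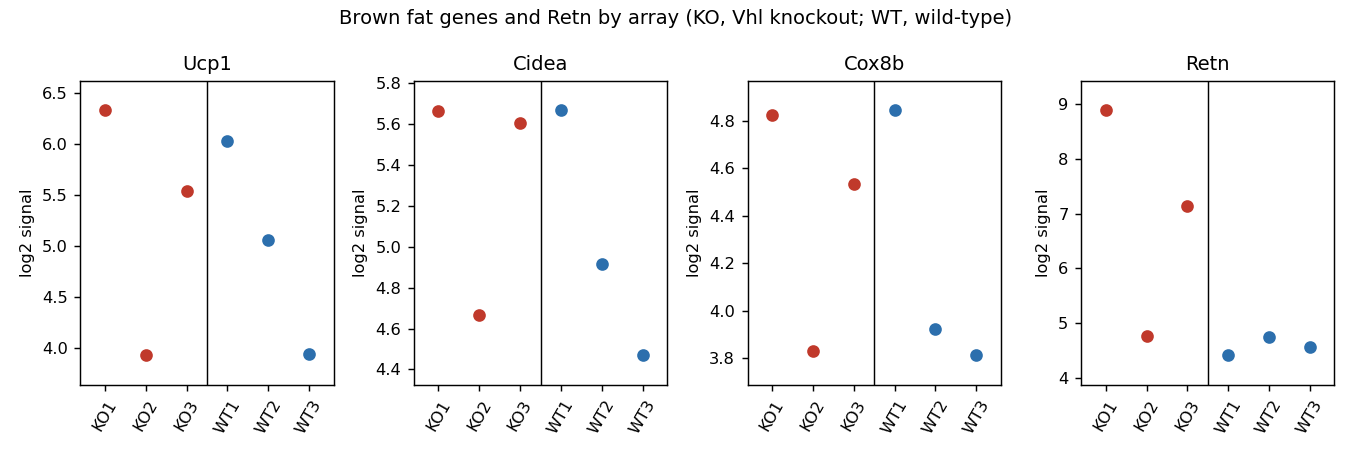
Log2 signal (vertical axis, a separate scale per gene) of Ucp1, Cidea, Cox8b and Retn on the 3 Vhl knockout arrays, left of the 3 wild-type arrays. Wild-type replicate 1 is near the top for the first 3 genes, at 6.03 for Ucp1, whereas for Retn, at 4.41, it is the lowest array.

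A brown and beige fat list, which holds Cox8b but neither Ucp1 nor Cidea, showed no call. Of its 16 genes 15 had a row, and 0 passed the test in limma (beside 2.77% of all rows), with a median log2 ratio of 0.01. At an unadjusted p under 0.05 in limma 0 were higher (beside 8.67% of all rows) and 1 lower (beside 8.38%). The lower one was Prdm16, a determinant of brown fat identity, with 5.88, 6.00 and 5.94 on the knockout arrays, against 6.25, 6.17 and 6.12 on the wild-type arrays. Its log2 ratio was -0.24 (SE 0.075, adjusted p = 0.162). Slc36a2, an amino acid transporter of brown fat cells, differed from its wild-type mean by 0.52, -0.19 and 0.36 on the log2 scale on knockout replicates 1, 2 and 3, against wild-type log2 signals of 4.64, 4.67 and 4.59. As for many genes of the set, knockout replicates 1 and 3 of Slc36a2 were above the other 4 arrays and replicate 2 was the lowest, and its log2 ratio was 0.23 (SE 0.174, adjusted p = 0.554).

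Across the set the spread among the knockout arrays was wider than among the wild-type arrays. The median SD of the 36 genes was 0.36 on the knockout arrays and 0.14 on the wild-type arrays, while over all rows the medians were 0.12 and 0.11. The knockout SD was the larger in 30 of the 36 genes, beside 53.1% of all rows. Of the 252 rows (1% of all) with the largest SD among the knockout arrays, 11 were of the set, namely Adipoq, Retn, Cidec, Fabp4, Acaca, Fasn, Thrsp, Scd1, Ucp1, Car3 and Lgals12. Ranked over all rows Retn came 3rd, Cidec 4th, Adipoq 6th, Thrsp 14th and Car3 16th, so that 5 of the first 25 rows were of the set. Ucp1 was 28th by the SD of the knockout arrays and 16th by that of the wild-type arrays. The difference between the highest and the lowest of the 6 arrays was above 1 on the log2 scale in 17 genes (beside 4.71% of all rows) and below 0.5 in 11 genes.

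**Figure D5:**
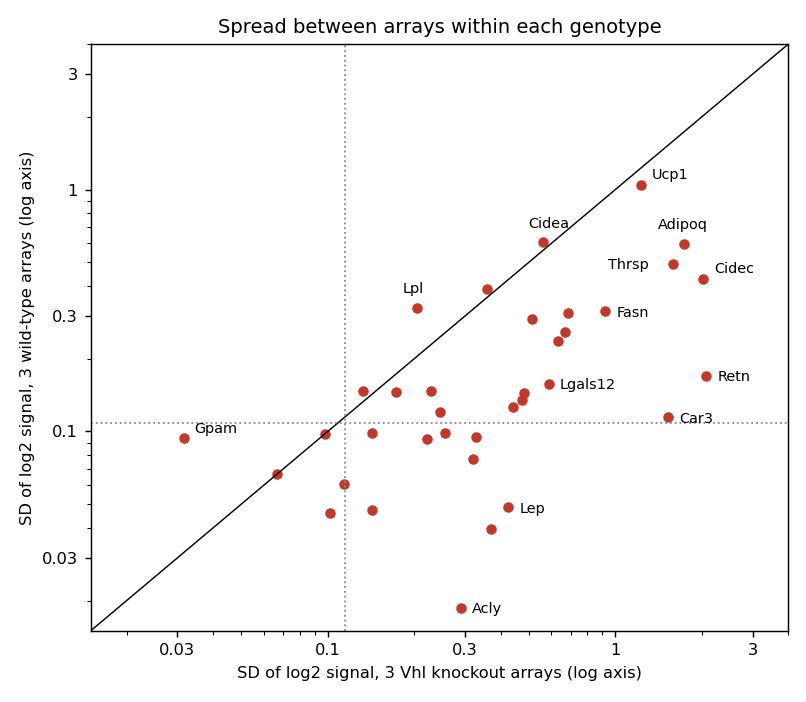
SD of the log2 signal over the 3 wild-type arrays (vertical, log axis) against that over the 3 Vhl knockout arrays (horizontal, log axis), 1 point per gene of the set, with the line of equal SD and dotted lines at the medians over all rows. Retn (2.07 on the knockout arrays, 0.17 on the wild-type arrays) and Car3 (1.53 and 0.11) lie far below the line, while Ucp1 (1.23 and 1.05) lies near it.

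The order of the arrays was shared by much of the set. Knockout replicate 1 was the highest of the 6 arrays in 25 genes (69.4%, beside 19.4% of all rows). Knockout replicates 1 and 3 were both above the other 4 arrays in 19 genes (52.8%, beside 8.76% of all rows), and knockout replicate 2 was the lowest knockout array in 29 (80.6%, beside 32.2%). In 16 genes (44.4%, beside 43.3% of all rows) replicate 2 lay within the wild-type range. Among the wild-type arrays, replicate 1 was the highest in 18 genes (50.0%, beside 33.1% of all rows), and in 17 genes (47.2%, beside 11.7%) this went with knockout replicate 2 being the lowest of its genotype. The groups did not overlap in 8 genes, with the knockout above in 7 (19.4%, beside 11.2% of all rows) and below in 1 (2.8%, beside 12.7% of all rows). All genes share the same 6 extracts, so these counts are not separate pieces of evidence. The genes were chosen with earlier results of these data known, and the orders counted were read from these same values. The shares beside those of all rows therefore describe the set and are no test.

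Flat and steep genes were both found among the bright rows. In the set, 23 genes lay above the array median on all 6 arrays, among them Gpd1, Gpam and Me1, which spanned less than 0.5 on the log2 scale, and the steep Fabp4, Thrsp, Fasn and Car3. Of the other 13 genes, Retn and Lgals12 were above the array median on knockout replicates 1 and 3 alone, and so was Adipoq. Lep was below it on every array.

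Without the array of knockout replicate 2, 6 of the 36 genes passed the test, all higher in the knockout. These were Lep (log2 ratio 1.04, adjusted p = 0.0103 in limma), Lgals12 (1.41, adjusted p = 0.0118), Cidec (2.94, adjusted p = 0.0283), Retn (3.44, adjusted p = 0.0301), Adipoq (2.76, adjusted p = 0.0408) and Mest (0.60, adjusted p = 0.0459). The 6 were 16.7% of the set, beside 1.62% of all rows passing in the same fit (1.43% higher, 0.19% lower). At an unadjusted p under 0.05 there were 17, all higher, beside 8.16% of all rows higher and 7.88% lower. With any other array left out, 0 genes passed. Knockout replicates 1 and 3, left alone by this omission, are also the arrays on which these genes are high, so the count without replicate 2 describes those arrays and is no test independent of the choice.

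Other genes of fat cells were read from a second list of 54 genes, the brown and beige list among them, of which 51 had a row. Of these, 2 passed the test in limma, both higher in the knockout, 0 passed lower, and 49 did not pass, with a median log2 ratio of 0.05. The 2 were 3.9% of the list, near the 2.77% of all rows. Lepr, the leptin receptor, had 6.09, 5.87 and 5.65 on the knockout arrays, against 5.18, 4.96 and 5.28 on the wild-type arrays. It rose by 0.73 on the log2 scale (SE 0.135, adjusted p = 0.0383), and with 1 array left out it passed only without knockout replicate 3 (adjusted p = 0.0428, up to 0.116 without wild-type replicate 1). Cavin1, a coat protein of caveolae, had 6.84, 6.60 and 6.60 on the knockout arrays, against 6.26, 6.21 and 6.11 on the wild-type arrays. It rose by 0.49 on the log2 scale (SE 0.094, adjusted p = 0.0448), a call lost with any array left out (adjusted p = 0.0813 to 0.140) and after quantile normalization (adjusted p = 0.0587). Neither gene had its lowest knockout value far below the others, as Retn and Adipoq did, and neither is particular to fat cells.

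Hp and Orm1, plasma proteins of the acute phase that fat cells also secrete, were far higher on knockout replicates 1 and 3 than on replicate 2, as Retn and Adipoq were. Hp, haptoglobin, had 6.78, 5.14 and 6.22 on the knockout arrays, against 5.04, 4.58 and 4.56 on the wild-type arrays, with a log2 ratio of 1.32 (SE 0.380, adjusted p = 0.137). Orm1 had 5.53, 3.71 and 4.76 on the knockout arrays, against 3.58, 3.92 and 3.92 on the wild-type arrays, with a log2 ratio of 0.86 (SE 0.404, adjusted p = 0.337). In both, knockout replicates 1 and 3 were the 2 highest arrays, as in 12 of the 51 genes of this second list (beside 8.76% of all rows). Knockout replicate 2 lay above every wild-type array for Hp and within the wild-type range for Orm1. Cd36, a fatty acid carrier named after its values were seen, had a different order, with 9.56, 10.56 and 10.50 on the knockout arrays, against 10.62, 10.68 and 10.63 on the wild-type arrays. Replicate 1, the highest for most of the set, was the lowest for Cd36, whose log2 ratio was -0.43 (SE 0.250, adjusted p = 0.432). Adig, Slc7a10, Plin5 and Aqp7, also named after their values were seen, did not have knockout replicates 1 and 3 as the 2 highest arrays. Their log2 ratios were 0.08, 0.18, 0.04 and -0.03. For Adig knockout replicates 2 and 3 lay within the wild-type range, and for Slc7a10 all 3 knockout arrays lay above it. Of the 51 genes, 32 had a log2 ratio above 0 and 19 below 0, the lowest being Pck1 (-0.50, adjusted p = 0.170 in limma) and Npr3 (-0.46, adjusted p = 0.108). The groups did not overlap in 9 with the knockout above (beside 11.2% of all rows) and in 7 with it below (beside 12.7%).

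Genes of the cells that surround fat cells in adipose tissue were also read. Those that passed the test were high on all 3 knockout arrays, an arrangement that passing the test itself favours. Over all 10 genes with a row, the log2 ratio was above 0 in 7 (beside 42.7% of all rows) and below 0 in 3. Knockout replicate 2 lay within the wild-type range in 2 of the 10 (beside 43.3% of all rows). Of 12 listed genes of adipose stroma and preadipocytes 10 had a row. Of these, 3 were higher (beside 2.24% of all rows), 0 lower (beside 0.524%) and 7 did not pass. Icam1, an adhesion molecule, had 6.95, 6.78 and 6.90 on the knockout arrays, against 6.22, 6.30 and 6.22 on the wild-type arrays, with a log2 ratio of 0.63 (adjusted p = 0.00939). Cd34, a marker of progenitors and of endothelium, had 7.95, 7.66 and 7.71 on the knockout arrays, against 7.13, 6.92 and 7.07 on the wild-type arrays, with a log2 ratio of 0.74 (adjusted p = 0.0144, and 0.0526 without wild-type replicate 2 or 0.0551 without wild-type replicate 3). Pdgfra, a growth factor receptor of fibroblasts and preadipocytes, had a log2 ratio of 0.59 (adjusted p = 0.0252, and among the omissions of 1 array it passed only without knockout replicate 2, with 0.0944 without wild-type replicate 1). Relative to the wild-type mean, the median of these 10 genes was 0.55, 0.29 and 0.47 on knockout replicates 1, 2 and 3, where that of the fat cell set was 0.64, -0.07 and 0.27. These genes also mark fibroblasts and endothelium of the kidney, and their part in the values of the fat cell set was not tested.

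Of other tissues next to the kidney, mesothelium had 3 of 8 genes higher (beside 2.24% of all rows) and 0 lower (beside 0.524%). Upk1b, with a log2 ratio of 1.44 (adjusted p = 0.00523), Krt19, with 1.61 (adjusted p = 0.00642), and Upk3b, with 0.58 (adjusted p = 0.0379), are also made by urothelium. Upk3b kept its call only without knockout replicate 3 among the omissions of 1 array (adjusted p = 0.0453, up to 0.119 without wild-type replicate 2). Msln, the defining mesothelial gene, had 4.13, 3.98 and 3.82 on the knockout arrays, against 3.95, 3.79 and 3.69 on the wild-type arrays (log2 ratio 0.17, adjusted p = 0.478). In limma 0 of 12 adrenal genes passed, and their median log2 ratio was -0.05. At an unadjusted p under 0.05 in limma 1 was higher (beside 8.67% of all rows) and 0 were lower (beside 8.38%). The higher one was Mc2r, the receptor of corticotropin, with 3.52, 3.23 and 3.20 on the knockout arrays, against 3.02, 2.72 and 2.85 on the wild-type arrays. Its log2 ratio, the largest of the list, was 0.45 (adjusted p = 0.104), and 5 of its 6 arrays were under their lower quartile. The steroid enzyme Cyp11b1 had a mean of 2.84 in the knockout and 3.15 in wild-type, with all 6 arrays under the lower quartile. Of 10 skeletal muscle genes 0 passed in limma, and their median log2 ratio was -0.01. At an unadjusted p under 0.05 in limma 0 of them were higher and 1 lower, against the same shares of all rows.

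Likeness over the 6 arrays was measured as the root mean square difference of log2 values centred on the mean of each row. Only rows with a symbol were ranked. Of these, Cidec was the row most like Adipoq, at 0.26. Thrsp was the third, at 0.40, Retn the fourth, at 0.53, and Fabp4 the tenth, at 0.77, and 8 genes of the set were among the first 25 rows with a symbol. Outside the set the 10 nearest rows with a symbol were Abcd2, Hp, Rnase4, Kynu, Mrap, Retnla, Cpxm2, Ang, Orm1 and Ly6d. Abcd2, a peroxisomal transporter of long-chain fatty acids, was the nearest of them, at 0.36, with 5.88, 3.20 and 5.22 on the knockout arrays, against 3.45, 3.51 and 3.02 on the wild-type arrays. Mrap, an accessory protein of the melanocortin 2 receptor that fat cells and adrenal cells make, had 6.25, 4.18 and 5.29 on the knockout arrays, against 4.83, 4.48 and 4.07 on the wild-type arrays. Knockout replicate 2 lay within the wild-type range, as in Adipoq, for Abcd2, Kynu, Mrap and Orm1. For Hp, Rnase4, Retnla, Cpxm2, Ang and Ly6d it lay above every wild-type array. Of these 10 rows only Rnase4 and Ang passed the test in limma, both higher (log2 ratio 2.15, adjusted p = 0.0244, and 1.97, adjusted p = 0.0390). The same measure against Ucp1, a reference chosen after its values were seen, was again ranked over rows with a symbol. It put Mrap first, at 0.49, then Cidea, at 0.49, and Fasn, at 0.50, with Cox8b and Car3 among the first 10. These are descriptions over 6 arrays, with no test.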

How the data were processed

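Kidney RNA of 3 Vhl knockout and 3 wild-type samples was profiled on Affymetrix Mouse Gene 2.0 ST arrays. The values deposited by the authors are log2 signals from RMA (background correction, normalization between arrays and summary), 1 value per Entrez Gene row, with no version stated in the sources. A second deposited table held equal log2 values in all 25206 rows, beside the authors' own comparison, which was not used, and 0 columns with values of a sample stayed unmapped. Symbols came from the platform annotation by Entrez ID through RefSeq (GRCm38.p6), with 23185 rows matched and 2021 without a symbol.

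The genotypes were compared row by row in limma 3.58.1 under R 4.3.3 (lmFit, eBayes, no covariate), with Benjamini-Hochberg adjustment over the whole table at 0.05. In each row the fit assumes the same spread in both genotypes, which the SDs of many genes of the set do not bear out. The methods name an analysis of variance in general and no test for the arrays. The fit was checked on simulated data with the same spread in both genotypes and equal shifts on all knockout arrays. That check does not cover genes with unequal spreads or a knockout array that differs from the others, as in much of the set. No filter was applied to dim rows. Precision is limited by the number of arrays. The p-values measure only the spread between these samples, which may be technical.

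The genes of the set and the other lists were chosen with earlier results of these data known, so lists are described by counts and medians. Genes named in full were those with the largest differences between arrays, and of other lists those past the threshold, up to 4 with the largest change and the defining markers. Alternatives were quantile normalization, dropping dim rows, other variance models, weights per array, a replicate block, omission of each array and a looser threshold. The fit without knockout replicates 1 and 3 was added after seeing the data. Tables used Python 3.11.15 with pandas 2.3.3.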

Additional observations from a re-analysis of the deposited data

How the results depend on the processing

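The count of rows past the threshold over all rows, 697, was 1101 when dim rows were dropped (those not above the median of 3 or more arrays), 1094 with trend and robust eBayes, 1340 at a threshold of 0.1, 270 with the replicate block, 26 without moderation, 8 without knockout replicates 1 and 3, and 245 to 409 with 1 array left out. The count for the fat cell set, 0, was 2 at a threshold of 0.1 (Lep and Lgals12) and 0 to 6 with 1 array left out, the 6 without knockout replicate 2. It was 0 under quantile normalization, the filter (30 of the 36 genes kept), trend and robust eBayes, array weights, the replicate block, no moderation, and without knockout replicates 1 and 3. The count for the other fat cell genes, 2, was 3 when dim rows were dropped, with trend and robust eBayes and at a threshold of 0.1, 2 with array weights, 1 after quantile normalization, 0 with the replicate block, without moderation and without knockout replicates 1 and 3, and 0 to 1 with 1 array left out. Deviations of samples with the same replicate number correlated at 0.04, 0.07 and -0.10, against -0.10 to 0.07 for samples with different numbers. With 3 arrays per genotype, these values do not settle whether the samples were paired. With the block Lepr (adjusted p = 0.0896), Cavin1 (0.0798), Pdgfra (0.0779), Icam1 (0.0586) and Upk3b (0.0729) lost their calls, and Cd34, Krt19 and Upk1b passed.

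In 14 genes of the set a left-out array turned the sign of the log2 fold change, with these ranges over the 6 omissions: Nrg4 (-0.18 to 0.24), Lpl (-0.050 to 0.27), Slc2a4 (-0.11 to 0.024), Pnpla3 (-0.017 to 0.23), Gpd1 (-0.075 to 0.026), Gpam (-0.080 to 0.014), Acly (-0.16 to 0.12), Acaca (-0.059 to 0.58), Acacb (-0.14 to 0.17), Fasn (-0.050 to 0.87), Elovl3 (-0.021 to 0.12), Scd1 (-0.094 to 0.53), Ucp1 (-0.28 to 0.93), Car3 (-0.36 to 1.10). With array weights (0.643 for knockout replicate 1, 0.987 to 1.22 for the others) Acly was -0.048 and Acacb -0.022, and after quantile normalization Acacb was -0.018. Without knockout replicates 1 and 3, so that the lone knockout array was assumed to vary like the wild-type arrays, 18 genes turned: Adipoq to -0.068, Nrg4 -0.20, Plin1 -0.23, Plin4 -0.053, Cidec -0.40, Cidea -0.35, Lipe -0.095, Pnpla3 -0.15, Gpd1 0.020, Gpam 0.0032, Acly -0.23, Acaca -0.22, Acacb -0.22, Fasn -0.42, Thrsp -0.23, Scd1 -0.33, Ucp1 -1.08 and Car3 -1.49. Apart from the array omissions, which leave fewer samples, the cause was not tested. Signal near the lower quartile of the arrays limits Elovl3, Acvr1c, Lep and, on 4 of 6 arrays, Adipoq.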
